A study of Mus musculus with 10 samples.

Results

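The 10 genes described here encode the coat of the lipid droplet and the enzymes that empty it: *Plin1*, *Plin2*, *Plin4*, *Plin5*, *Cidea*, *Cidec*, *Lipe*, *Pnpla2*, *Mgll* and *Abhd5*. They were taken by name from the array annotation, with every probe that carries 1 of these names and is no control, and no measured value entered the choice. They are 10 of 34797 gene symbols and 16 of 55681 probes on the array. Epididymal white adipose tissue of 10 adult male mice was measured, 1 array per mouse. The labels give the strain as C57BL/6J and the protocol as C57BL/6JOlaHsd wildtype. Mice entered at 9 weeks of age, received 3 weeks of low fat diet and then 12 weeks of high-fat diet (HFD), all at thermoneutrality of 29 °C. All 10 then had daily injections of desferrioxamine (DFO), an iron chelator, at 100 mg/kg body weight for 5 days, and were killed on day 6 after 2 h without food. The RNA of each mouse was labelled with Cy5 and hybridised against a common Cy3 pool made from every sample of the wider study, control mice included. There is 1 group and no control array here, and the dyes were not swapped, so no effect of DFO can be read from these values and no log2 ratio was tested against 0.

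An adipocyte stores triacylglycerol in a lipid droplet whose surface is covered by perilipins. Perilipin 1 (*Plin1*) is the coat of the large adipocyte droplet and holds the cofactor ABHD5 (*Abhd5*) in the resting state, while perilipin 2 (*Plin2*) is found on droplets of nearly every cell type, foamy macrophages included. CIDEC (*Cidec*) and CIDEA (*Cidea*) sit where droplets touch and transfer lipid from the smaller to the larger. After an adrenergic signal ABHD5 is released and activates adipose triglyceride lipase (ATGL, *Pnpla2*), which removes the first fatty acid, and hormone-sensitive lipase (*Lipe*) and monoglyceride lipase (*Mgll*) remove the next ones.

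*Cidec* was measured with 2 probes, *Mgll* with 4 and *Abhd5* with 3, at different places of the gene, and the remaining 7 genes with 1 probe each. The sequences of 4 probes of 60 bases are shown. Whether the place in the transcript bears on the readings below was not tested. They are the only *Lipe* probe, on chromosome 7 from 26165828 to 26165887 on the minus strand, the second *Cidec* probe, on chromosome 6 from 113378116 to 113378175 on the minus strand, an *Mgll* probe on chromosome 6 from 88714636 to 88714695 on the plus strand, and an *Abhd5* probe on chromosome 9 from 122277200 to 122277259 on the plus strand. Positions are those of mouse build mm9 in the array annotation, which names the gene but not the exon.
*Lipe*: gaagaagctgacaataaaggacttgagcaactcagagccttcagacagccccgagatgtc
*Cidec*: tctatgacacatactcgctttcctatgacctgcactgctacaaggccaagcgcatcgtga
*Mgll*: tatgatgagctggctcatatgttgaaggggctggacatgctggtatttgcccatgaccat
*Abhd5*: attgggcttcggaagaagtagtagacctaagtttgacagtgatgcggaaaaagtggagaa

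All 16 probes were well above the local background in Cy5 on all 10 arrays and none was saturated. Each gene is given below by its brightest probe with a value on every array, as the log2 ratio of mouse over pool after loess normalization. On that scale 1 unit is a doubling relative to the pool. One spot of the brightest *Mgll* probe was an outlier in mouse 10, so *Mgll* is represented by its next probe.

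The mice fell into separate clusters. The first principal component of 27718 expressed probes held 75.1% of the variance, and mice 4, 5, 6 and 7 lay apart from the other 6 with a gap of 0.513 of the range. These genes are among the probes behind that component, so the position of the 4 mice on it and on any 1 gene are not independent, and which mice lie high or low is given as a description with no test. The tissue had its label's markers: 9 of the 10 adipocyte markers had a probe well above background with a value on all arrays (*Retn* lacked only a complete set of values), and 3 of the 5 brown adipocyte markers had one (*Cox8b*, *Cpt1b* and *Ppargc1a*), while *Ucp1* passed on 1 array and *Elovl3* on none. The mean of the adipocyte list lay at -2.24 to -1.31 in mice 4 to 7 and at -0.20 to 0.65 in the other 6. The macrophage list lay at 0.57 to 0.83 and at -0.72 to -0.02, and the lipid-associated macrophage list at 1.16 to 1.51 and at -2.25 to -0.37. In whole tissue, fewer cells of a type and less RNA per cell cannot be told apart.

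Among the perilipins, the droplet coat genes of adipocytes were low in mice 4 to 7 and *Plin2* was high there. *Plin1* read 0.19, -0.34, 0.25, -1.92, -1.88, -1.13, -2.31, 0.31, 0.53 and 0.54 in mice 1 to 10 (mean -0.58 ± 1.12, SD, n = 10). *Plin4*, the coat protein of small nascent droplets, read 0.40, -0.36, 0.38, -2.64, -2.45, -1.62, -2.94, 0.58, 0.82 and 0.72 (mean -0.71 ± 1.53, SD, n = 10). In both genes all 4 mice lay below the other 6 with a clear gap, and *Plin4* had the largest spread of the 10 genes, above that of 99.9% of expressed probes. *Plin2* read -0.52, -0.23, -0.13, 0.79, 0.96, 0.83, 1.02, -0.56, -1.06 and -0.92 (mean 0.02 ± 0.81, SD, n = 10). The order was turned round: mice 4 to 7 held the 4 highest values, and the raw Cy5 intensity of the probe ran from 19891 in mouse 3 to 139597 in mouse 7. *Plin5*, the perilipin of oxidative tissues that joins droplets to mitochondria, read -0.29, 0.44, -0.55, -0.69, -1.38, -0.74, -1.26, 0.60, 0.06 and -0.22 (mean -0.40 ± 0.66, SD, n = 10). Here the gap between mouse 4 and mouse 3 was only 0.14.

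**Figure D1:**
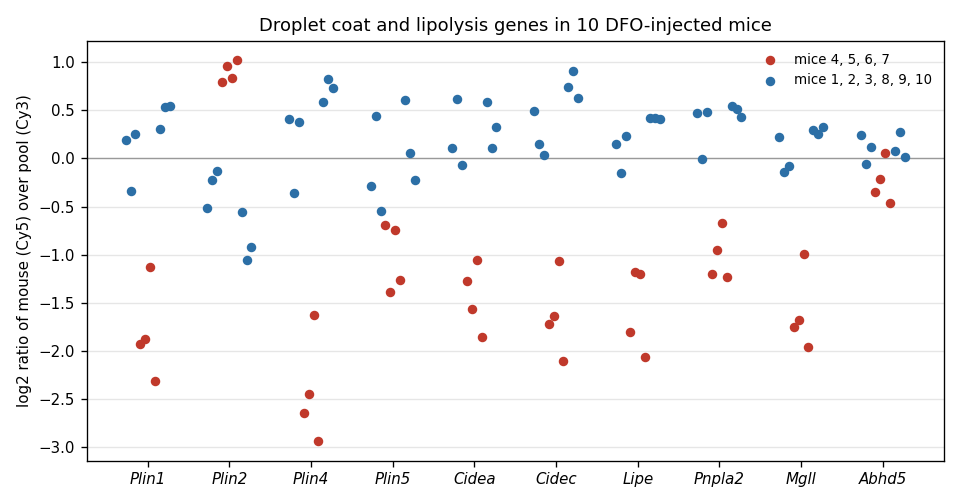
The log2 ratio of mouse (Cy5) over pool (Cy3) is plotted for each of the 10 genes, 1 point per mouse in the order 1 to 10, with mice 4 to 7 in red and the other 6 in blue. The red points lie below all blue points in 8 genes, above them in *Plin2* and among them in *Abhd5*. With median centring in place of loess they lie below in 4 genes and overlap the blue points in 5.

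Between the clusters of mice, *Cidec* and *Cidea* followed *Plin1* rather than *Plin2*, with the same 4 mice lowest. Within the other 6 mice this held for *Cidec* only in direction, with r = 0.681 with *Plin1* and -0.903 with *Plin2*. For *Cidea* the values were -0.455 with *Plin1* and 0.046 with *Plin2*. None of these relations passed after adjustment. *Cidec* read 0.49, 0.15, 0.04, -1.72, -1.64, -1.07, -2.10, 0.74, 0.91 and 0.63 in mice 1 to 10 (mean -0.36 ± 1.15, SD, n = 10). Its second probe, the sequence printed above, read 0.13, -0.11, 0.07, -1.51, -1.47, -0.96, -1.81, 0.28, 0.57 and 0.12, so that both places of the transcript gave the same 4 mice as lowest. *Cidea* read 0.11, 0.62, -0.07, -1.28, -1.56, -1.05, -1.85, 0.59, 0.11 and 0.33 (mean -0.41 ± 0.93, SD, n = 10). The *Cidea* probe was dim, with raw intensities of 130.2 in mouse 5 to 970.4 in mouse 8 against a median local background of 32 to 37 per array.

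The 3 lipases were also lowest in mice 4 to 7. *Lipe* read 0.15, -0.15, 0.24, -1.80, -1.18, -1.20, -2.06, 0.42, 0.42 and 0.41 (mean -0.47 ± 0.98, SD, n = 10). *Pnpla2* had a narrower span, with 0.47, -0.01, 0.48, -1.20, -0.95, -0.68, -1.23, 0.54, 0.51 and 0.43 (mean -0.16 ± 0.76, SD, n = 10). *Mgll* read 0.23, -0.14, -0.08, -1.75, -1.68, -0.99, -1.95, 0.29, 0.25 and 0.33 (mean -0.55 ± 0.94, SD, n = 10). Within the 4 mice, mouse 6 had the smallest and mouse 7 the largest departure for *Pnpla2* and *Mgll*.

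The 4 *Mgll* probes did not read alike. The brightest, with 9 usable values, read -1.80 to -0.87 in mice 4 to 7 and -0.04 to 0.48 in the 5 others with a value. The probe printed above read -1.64 to -0.63 in mice 4 to 7 and -0.30 to 0.26 in the other 6. The probe from 88716266 to 88716325 on the plus strand of the same chromosome (mm9) read -0.27 to -0.02 in mice 4 to 7 and 0.14 to 0.46 in the other 6. That last probe kept mice 4 to 7 below the other 6 with much smaller differences, and its mean raw intensity was 102 units.

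*Abhd5*, the cofactor of ATGL, was the exception among the genes of lipolysis. It read 0.24, -0.06, 0.12, -0.34, -0.21, 0.06, -0.46, 0.07, 0.28 and 0.02 in mice 1 to 10 (mean -0.03 ± 0.24, SD, n = 10). Mouse 6, with 0.06, was higher than mouse 2 and mouse 10, which lie outside the 4. Its other 2 probes stayed between -0.38 and 0.11 and between -0.37 and 0.09, the second being the printed one, and neither put mice 4 to 7 apart from the rest.

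**Figure D2:**
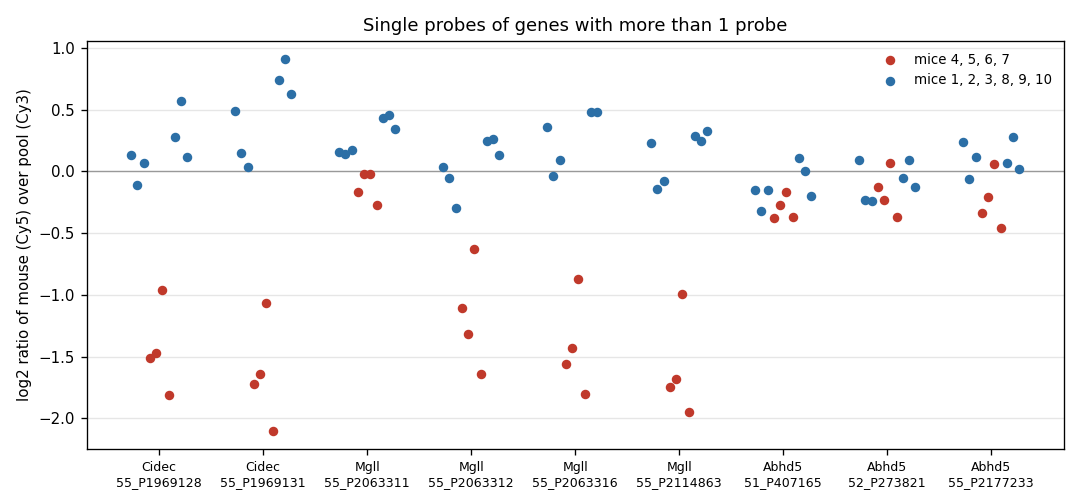
The log2 ratio of mouse over pool is plotted for each probe of the 3 genes with more than 1 probe, 1 point per mouse, with mice 4 to 7 in red and the other 6 in blue. Both *Cidec* probes and 3 *Mgll* probes place the red points well below the blue ones, the dim *Mgll* probe does so by a small margin, and the 3 *Abhd5* probes hold all mice between -0.46 and 0.28.

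By count, mice 4 to 7 lay below the other 6 in 8 of the 10 genes, where 21.3% of all expressed probes did so, and above them in 1 gene (*Plin2*), where 17.9% of all expressed probes did so. The scanner software's log ratio, values without background subtraction, means over probes and the deposited normalized values gave the same 8, 1 and 1 gene. With median centring, which raised the median over all expressed probes and mice from a log2 ratio of 0.01 to 0.32, 4 genes lay below (*Plin1*, *Plin4*, *Cidea*, *Lipe*), *Plin2* above, and *Plin5*, *Cidec*, *Pnpla2*, *Mgll* and *Abhd5* overlapped. The means over the 10 mice given above as negative turned positive under it in 8 genes, all but *Cidea*, so their sign relative to the pool depends on the centring. Taken relative to each array's own median, an alternative chosen after seeing the data, 7 genes lay below and *Plin5* and *Abhd5* overlapped.

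The spread between mice was set against the spread of the Cy3 pool over the same 10 arrays. The pool is identical on each array. After normalization the Cy3 spread is not that of arrays and scans alone, since scaling between arrays acts on both dyes of a spot. Cy5 was more variable than Cy3 for 10 of 10 genes (Pitman-Morgan test for paired variances, Benjamini-Hochberg adjustment), where 59.8% of 25049 probes passed in this direction and 0.164% in the opposite one. The median ratio of the Cy5 SD to the Cy3 SD was 10.6 for the 10 genes and 2.48 for all probes tested. For *Cidea* the log2 SD was 0.94 in Cy5 and 0.047 in Cy3, a ratio of 20.0. For *Plin1* it was 1.08 and 0.071, a ratio of 15.2, and for *Plin2* 0.84 and 0.058, a ratio of 14.4. *Cidec* had the lowest ratio, 2.88, with a Cy3 SD of 0.30 where the other 9 genes had 0.047 to 0.17. The *Cidec* Cy5 SD was 0.86 and the SD of its log2 ratio 1.15, so its normalized dyes moved in opposite directions. The log2 ratio SD also exceeded the Cy5 SD in *Plin1* (1.12 against 1.08), *Plin4* (1.53 against 1.37) and *Mgll* (0.94 against 0.89). It was nearly equal in *Lipe* and lower in *Plin2*, *Plin5*, *Cidea*, *Pnpla2* and *Abhd5*. The part of normalization in the ratios of Cy5 SD to Cy3 SD was not tested. *Abhd5* had the smallest Cy5 SD, 0.28, and a ratio of 4.55.

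**Figure D3:**
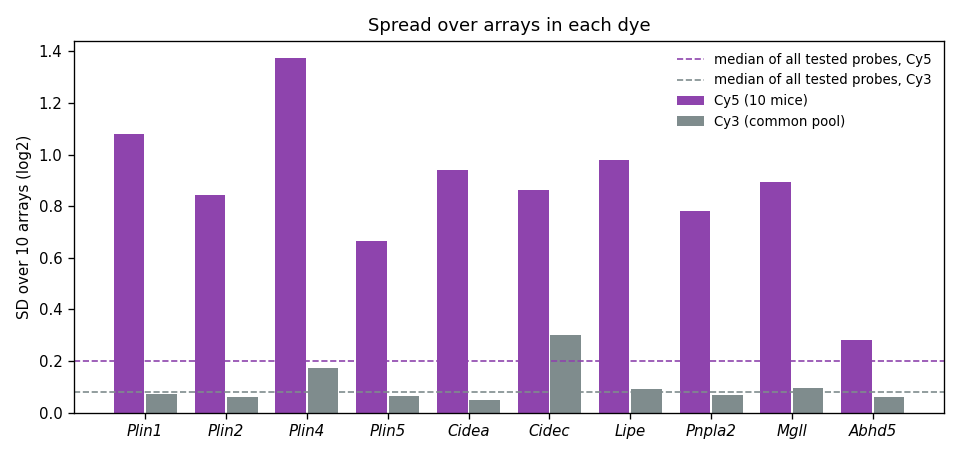
Bars give the SD over 10 arrays of the normalized log2 intensity of each gene in Cy5 (the mice, purple) and in Cy3 (the common pool, grey), and dashed lines give the median over all tested probes. Each Cy5 bar is taller than its Cy3 bar and than the Cy5 median of 0.20, with *Abhd5* the closest to it.

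Without mice 4 to 7, an alternative chosen after seeing the data, 7 of 10 genes still passed as more variable in Cy5 over the remaining 6 arrays, where 14.2% of 25068 probes passed and 33.6% had an unadjusted p under 0.05. The median ratio over all probes tested in these 6 mice was 1.91. *Plin1* had the largest ratio, with log2 SDs of 0.33 and 0.024 and a ratio of 14.0. *Plin2*, *Plin4*, *Plin5* and *Cidea* had ratios of 5.69 to 6.33, *Mgll* 3.76 and *Lipe* 3.62. *Cidec* (ratio 1.83), *Pnpla2* (2.70) and *Abhd5* (3.00) did not pass, with adjusted p = 0.27, 0.17 and 0.10 in the same Pitman-Morgan test.

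The 10 arrays lay on 5 slides of 2 arrays each. A slide effect was called for 0 of the 10 genes (limma, adjusted p 0.70 to 0.83). Of 27718 probes 0% passed, with 4.1% at an unadjusted p under 0.05. Mice 3 and 4 shared slide 2, mice 5 and 6 slide 3, and mice 7 and 8 slide 4. The gap between the clusters thus fell within slides 2 and 4, which weakens the test, and a slide effect is not excluded. Of the 10 genes only *Plin2* was under that value, with an unadjusted p = 0.040 in limma's moderated F test and an adjusted p = 0.70.

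The genes were then set beside the adipocyte markers of the same mouse. The difference between *Plin1* and the mean of the adipocyte list ran from -0.07 to 0.19 in mice 4 to 7 and from -0.18 to 0.07 in the other 6. *Plin1* thus stayed within 0.19 log2 units of the list in every mouse, and the mice overlapped under all 5 scalings tried, of which the scanner's and the deposited values were added after seeing the data. *Plin4* minus the list was -0.70 to -0.31 in mice 4 to 7 and -0.16 to 0.28 in the others, below under all 5 scalings. *Pnpla2* minus the list was 0.64 to 1.01 and -0.14 to 0.35, *Abhd5* 1.37 to 1.77 and -0.49 to 0.15, and *Plin2* 2.14 to 3.26 and -1.70 to -0.02, all above under the same 5 scalings. *Lipe* (0.12 to 0.63 and -0.23 to 0.05) lay above but overlapped with median centring and with the deposited values, *Mgll* (0.13 to 0.35 and -0.40 to 0.10) overlapped with the deposited values, and *Plin5*, *Cidea* and *Cidec* overlapped under all 5. The list mean itself was -2.24 to -1.31 in mice 4 to 7, so any gene less low there comes out above it. *Pparg*, a marker on the list, read -1.01 to -0.56 in these mice and so lay above the list mean too. *Abhd5* overlapped on its own values (-0.46 to 0.06 and -0.06 to 0.28). Lying above the list therefore does not show that a gene was high in mice 4 to 7.

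**Figure D4:**
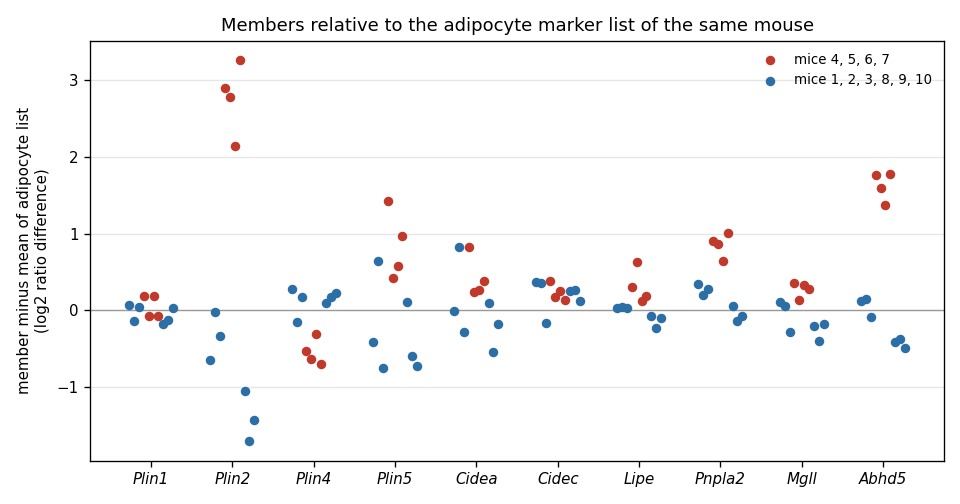
The difference between each gene's log2 ratio and the mean log2 ratio of 9 adipocyte markers in the same mouse is plotted, 1 point per mouse, with mice 4 to 7 in red and the other 6 in blue. *Plin1* stays near 0 in all mice, *Plin4* is lower in the red mice, and *Plin2*, *Pnpla2* and *Abhd5* are higher in them, with *Plin2* at 2.14 to 3.26. The subtracted list mean is itself low in the red mice.

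*Plin2* moved with the macrophage lists. Over all expressed probes, mice 4 to 7 lay above the other 6 in 17.9% and below them in 21.3%, beside which the counts here stand. Of the 10 macrophage markers, 9 were highest in mice 4 to 7 and *Cd163* lowest. *Ctss*, a lysosomal protease, lay at 1.06 to 1.46 against -1.33 to 0.04, *Cd68* at 0.65 to 0.99 against -1.39 to -0.10 and *Csf1r* at 0.40 to 0.63 against -0.57 to 0.03. All 6 lipid-associated macrophage markers were highest in the same mice, *Gpnmb* at 1.42 to 1.87 against -2.87 to -0.76, *Trem2* at 1.10 to 1.52 against -2.43 to 0.09 and *Itgax* at 0.83 to 1.20 against -1.50 to -0.26. Of the 9 adipocyte markers with complete values 8 were lowest in these mice, *Cfd* at -4.69 to -3.36 against -0.70 to 1.44, *Adipoq* at -2.78 to -1.63 against -0.08 to 0.81 and *Dgat2* at -2.20 to -0.93 against 0.18 to 0.83, and *Cd36*, which macrophages express too, was highest. The part of cell composition in the values of the 10 genes was not tested. For the other cell types, mice 4 to 7 lay below the rest in 4 of 5 endothelial markers, 3 of 5 mesothelial, 2 of 6 progenitor, 2 of 5 lymphocyte, 1 of 3 brown adipocyte and 0 of 3 sperm markers with a value, beside 21.3% of all expressed probes. Mouse 2 was highest in all 3 sperm markers, *Prm1* (-1.37), *Prm2* (-0.79) and *Tnp1* (-0.89). Their mean was -1.02 in mouse 2 and -2.79 to -2.10 in the other mice. These probes were dim, with mean raw intensities of 125.8, 136.2 and 90.8. Mouse 2 was also highest in *Cidea* (0.62). Whether other tissue bears on the *Cidea* and *Plin5* values of mouse 2 was not tested. The mean of the mesothelial list lay at -1.62 to -1.10 in mice 4 to 7 and at -0.57 to 0.29 in the other 6, and that of the endothelial list at -0.73 to -0.41 and at -0.04 to 0.26.

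**Figure D5:**
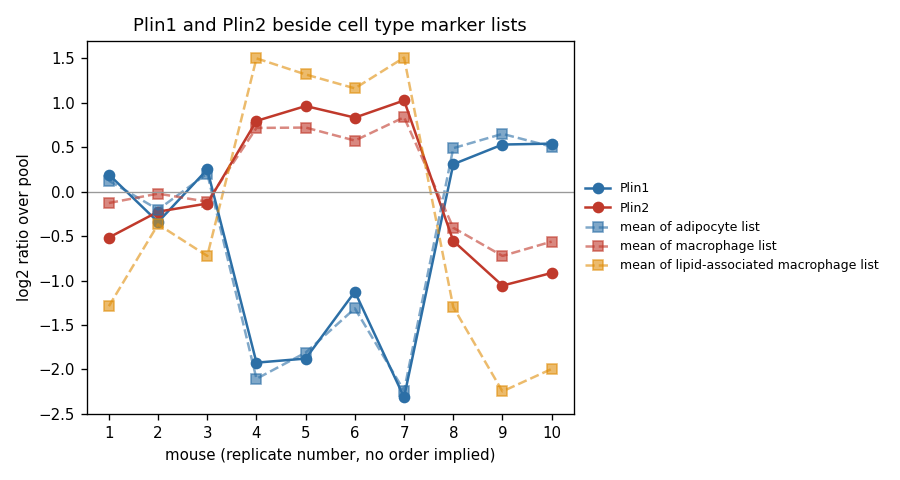
The log2 ratio over pool of *Plin1* (blue circles) and *Plin2* (red circles) is plotted for each of the 10 mice, beside the mean of the adipocyte, macrophage and lipid-associated macrophage marker lists (squares, dashed lines). The lines join values of the same series and the mouse numbers have no order. *Plin1* lies close to the adipocyte list, and *Plin2* rises and falls on the same side of 0 as both macrophage lists in every mouse.

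Relations between genes were computed only within the 6 mice outside the separate cluster, because a correlation over all 10 would repeat the gap between the clusters. Of 65 relations, 45 between pairs of the 10 genes and 20 with the adipocyte or macrophage list, 0 passed after adjustment by the exact two-sided permutation test of r or of rho, whose smallest p over 720 permutations is 0.0014, and 17 had an unadjusted p under 0.05. The closest pair was *Plin1* with *Plin4* (r = 0.990, exact permutation p = 0.0056, adjusted p = 0.072, rho = 0.886, exact permutation p = 0.033, adjusted p = 0.18, n = 6), and leaving out the 2 farthest mice on the first-named gene gave r = 0.967. *Plin2* with the macrophage list had r = 0.936 (exact permutation p = 0.0042, adjusted p = 0.072, rho = 0.943, exact permutation p = 0.017, adjusted p = 0.18, n = 6), and the 4 mice nearest the median alone gave r = 0.913. *Plin4* with the adipocyte list had r = 0.955 (exact permutation p = 0.0028, adjusted p = 0.072, rho = 0.943, exact permutation p = 0.017, adjusted p = 0.18, n = 6), and r was 0.920 without the 2 farthest. *Plin5* with *Cidea* had r = 0.890 (exact permutation p = 0.029, adjusted p = 0.14, rho = 0.886, exact permutation p = 0.033, adjusted p = 0.18, n = 6), which fell to 0.497 without the 2 farthest mice and so rested on them. Within-slide values could not be had, since only 2 slides hold 2 of these 6 mice.

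Other genes of the droplet and of lipolysis are given by the same measures. Of 14 genes of droplet coat and structure, 13 were expressed (*Fitm1* was not well above background on any array) and 11 of the 13 were more variable in Cy5, beside 59.8% of all probes tested. Mice 4 to 7 lay below the rest in 6 of the 13, above in 3 and among them in 4, beside 21.3% below and 17.9% above over all expressed probes. The 6 included *G0s2*, the inhibitor of ATGL, at -1.51 to -0.81 against -0.11 to 0.28, and the caveolar genes *Cav1*, at -1.97 to -1.12 against -0.34 to 0.48, and *Ptrf*, at -1.84 to -0.86 against -0.05 to 0.82. The other 3 of these 6 were *Fitm2*, *Bscl2* (seipin) and *Faf2*. They lay above in *Plin3* (0.15 to 0.37 against -0.27 to -0.07), *Aup1* (0.26 to 0.51 against -0.41 to 0.02) and *Hilpda*, a hypoxia-inducible inhibitor of ATGL (0.55 to 0.63 against -1.05 to -0.48). The ATGL inhibitors *G0s2* and *Hilpda* were therefore divided in opposite directions. *Cideb* and *Hsd17b11* passed the variance test with overlapping mice, and *Hsd17b13* and *Rab18* did not pass it. The spread of *Cideb* lay in mouse 2, which read 1.64 against -1.03 to -0.71 in all other mice. Its probe was dim, with a mean raw intensity of 239.

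Of 12 other lipases and regulators, 12 were expressed, 11 could be tested in both dyes and 9 were more variable in Cy5, beside 59.8% of all probes. The 4 mice lay below in 9 of the 12, beside 21.3% of all expressed probes, with *Adrb3*, the adrenergic receptor that starts lipolysis in mouse adipocytes, at -3.64 to -2.89 against -1.56 to 1.04, and *Ces1d*, a triacylglycerol hydrolase, at -3.28 to -2.26 against -0.43 to 1.03. The kinase subunit *Prkar2b* (-1.83 to -0.84 against -0.17 to 0.41) and the phosphodiesterase *Pde3b* (-1.50 to -0.87 against -0.16 to 0.63) lay below too, as did *Ces1f*, *Pnpla3*, *Abhd6*, *Adrb1* and *Lpl*. *Lpl*, lipoprotein lipase, had a narrow range of -0.19 to 0.42 and did not pass the variance test, nor did *Prkaca*. The 4 mice lay above in *Lipa*, the lysosomal acid lipase, at 0.24 to 1.07 against -1.80 to -0.52. Of 4 genes that handle the released glycerol and fatty acids, 3 passed the variance test (*Aqp7*, *Acsl1* and *Gyk*), beside the same 59.8%, and the 4 mice lay below in 3 (*Aqp7*, *Acsl1* and *Fabp4*), beside 21.3%. *Aqp7*, the glycerol channel, lay at -1.09 to -0.67 against -0.16 to 0.54, and *Fabp4*, the fatty acid carrier, lay at -2.08 to -0.93 against -0.17 to 0.80 but had a Cy5 SD only 1.03 times that in Cy3.

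The genes whose pattern over the 10 mice was nearest were ranked by the root mean square difference of log2 ratios, each gene centred on its own mean, over 20211 genes. They share the arrays and the gap between the mice, and no p is given. For *Plin1* they were *A530016L24Rik* (0.075), *Slc1a5* (0.094) and *Tcf15* (0.098), and for *Plin4* the glucose transporter gene *Slc2a4* (0.140), itself on the adipocyte list, *Chst1* (0.166) and a transcript with no gene symbol. For *Plin2* the nearest was *Cdk15* (0.068). For *Cidec* they were *Ehd3* (0.114), *Tns1* and *Palmd*, for *Cidea* *Grhpr* (0.183), *Myh14* and *Kif21a*, and for *Plin5* *Syn2* (0.224), *Zfp612* and *Myrip*. The *Plin5* differences were the largest of the 10 genes, so its pattern had no near neighbour. For *Lipe* they were *Gm5460* (0.123), *Cav1* (0.131) and *Lmo1*, for *Pnpla2* *Gm10406* (0.068), the endothelial cadherin gene *Cdh5* (0.079) and a transcript with no gene symbol, for *Mgll* *Slc7a10* (0.089), *Bnip3* (0.089) and *Dbi* (0.090), and for *Abhd5* *Eny2* (0.062), *Tapt1* and an entry with no gene symbol.

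The start regions of *Plin2* and *Plin1* are shown because these perilipins were divided in opposite directions. RefSeq windows of 250 bases before and 50 after each start on build GRCm38.p6 were at hand for 9 of the 10 genes. Searched on both strands, TGACCT, the complement of a nuclear receptor half-site, was found in windows of *Abhd5*, *Plin2* and *Plin5* (16.3% of 32851 windows hold it), and CACGTG, which contains ACGTG, in windows of *Lipe*, *Mgll* and *Plin2* (7.15% hold CACGTG and 19.6% the shorter motif). A repeat of AGGTCA with 1 base of any kind between, and TGACGTCA, were found in 0 of the 9 genes. The 260 bases up to 10 after the start are printed, with the letters searched for in capitals, from chr4:86670050-86670309 for *Plin2* and chr7:79732767-79733026 for *Plin1*, both on the minus strand. A match describes these letters and is not a binding site.
*Plin2*: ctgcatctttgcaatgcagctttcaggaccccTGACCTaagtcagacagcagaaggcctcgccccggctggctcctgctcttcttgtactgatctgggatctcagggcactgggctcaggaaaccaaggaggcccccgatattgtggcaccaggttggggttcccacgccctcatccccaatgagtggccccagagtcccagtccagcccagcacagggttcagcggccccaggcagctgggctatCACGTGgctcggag
*Plin1*: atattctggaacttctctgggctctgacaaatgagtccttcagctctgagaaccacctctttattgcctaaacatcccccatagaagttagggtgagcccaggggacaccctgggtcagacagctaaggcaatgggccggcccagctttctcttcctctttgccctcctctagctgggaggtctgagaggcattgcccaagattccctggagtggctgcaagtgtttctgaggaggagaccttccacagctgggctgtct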

How the data were processed

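Two-colour Agilent arrays of 10 mice were scanned by the authors and read with Agilent Feature Extraction 10.7.3.1, per the file headers. The deposited scanner files hold intensity values (mean signal and median local background of Cy5 and Cy3), quality flags and the scanner's log10 ratio of Cy5 over Cy3. The deposited value table holds log2 values for 30733 probes, with a median of 8.52 in every column. Its columns followed the log2 Cy5 signal of their own array (r = 0.994 to 0.999). With another array r reached 0.996, so r alone does not assign a column to its array, and columns were matched by sample name. The direction of the deposited values is that of Cy5, and how they were normalized was not given in the sources used here. The published text describes other mice and was used for style only. The genes, lists and tests were chosen with earlier results of these data known.

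Intensities were background corrected with normexp (offset 50) and normalized by loess within and Aquantile between arrays with limma 3.58.1 (R 4.3.3). Control and outlier spots were left out and 59305 spots averaged to 55681 probes. Median Cy5 intensity was 54.8 to 81.3 over the arrays, and the number of arrays limits the precision. A probe was expressed if well above background in Cy5 on at least 5 arrays (27811 probes, 27718 with every value). A gene was represented by its brightest expressed probe with a value on all arrays, which differs from the fixed rule for *Mgll*. The named genes were all 10 genes and their probes, pathway genes by the variance test, the 3 brightest of the lists beside them and the 3 nearest patterns, of which some are not reported here. Pitman-Morgan tests, exact permutation tests and Benjamini-Hochberg adjustment at 0.05 ran in Python 3.11.15 with numpy 2.4.6, pandas 2.3.3 and scipy 1.17.1, and the variance and slide tests were tested on simulated data. Whether mice shared a cage or litter was not stated, and each p takes the mice as independent. Alternatives were background, centring, between-array scaling, filters, slide as a block, probes per gene, the scanner's and the deposited values, and each mouse left out.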

Additional observations from a re-analysis of the deposited data

How the results depend on the processing

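Cy5 was more variable than Cy3 for 14973 probes, for 4675 without normalization between arrays and for 3558 without mice 4 to 7, the last chosen after seeing the data, and for 13516 to 14415 with each mouse left out in turn. All 10 genes passed in each of those mouse-by-mouse repeats, 9 with median centring or without normalization between arrays, where *Abhd5* was lost (adjusted p = 0.40 and 0.24 in the Pitman-Morgan test), and 7 without mice 4 to 7. Median centring turned the mean log2 ratio over the 10 mice from negative to positive in 8 genes, *Plin1* (0.06), *Plin4* (0.02), *Plin5* (0.05), *Cidec* (0.41), *Lipe* (0.04), *Pnpla2* (0.55), *Mgll* (0.11) and *Abhd5* (0.47 against -0.03), with *Plin2* at 0.76 and *Cidea* at -0.03. Near 0, the mean of *Plin2* ran from -0.09 to 0.14 and that of *Abhd5* from -0.06 to 0.02 with each mouse left out, and *Plin2* read -0.07 with the scanner's log ratio. Of the 65 relations, 0 passed, against 29 with median centring, 10 with the scanner's log ratio and 7 with the deposited values, and 0 without background subtraction, with means over probes or with any mouse left out. Over 5 mice the smallest permutation p is 0.0083. The causes of these differences were not tested. The slide test called 0 probes under every alternative run. Relations over 4 mice, without the 2 farthest, were given as r with no test. No paired analysis was possible because there is 1 group. Low intensity limits the *Cidea* probe and the *Mgll* probe with a mean raw intensity of 102.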
